A study of Bos taurus with 12 samples.

Results

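The 10 ADAMTS genes described here encode secreted zinc proteases (a disintegrin and metalloproteinase with thrombospondin motifs). They were taken by symbol from the deposited expression table of 18436 genes and from the deposited lists of m6A peaks, and they are ADAMTS1, ADAMTS2, ADAMTS4, ADAMTS5, ADAMTS6, ADAMTS7, ADAMTS9, ADAMTS10, ADAMTS12 and ADAMTS15. All 10 had a row in the table, 9 had at least 1 peak in proliferating myoblasts (GM) and 10 had at least 1 peak in differentiated myotubes (DM).

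Primary cells came from longissimus dorsi muscle of newborn Qinchuan cattle, and the study's methods speak of a single animal. GM cells were harvested at 80% confluence in DMEM/F12 with 20% fetal bovine serum, and DM cells at 100% confluence after 4 days in DMEM/F12 with 2% horse serum. Serum type, serum concentration, confluence, days and differentiation state therefore changed together and cannot be told apart. Each group had 3 input libraries, which gave mRNA levels, and 3 libraries of RNA immunoprecipitated with an antibody against m6A (IP). Since nothing says that the replicates came from separate animals, p-values measure only the spread between these samples, which may be technical.

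ADAMTS proteases are made as inactive precursors, are usually activated by furin-like convertases, and act in the extracellular matrix. Several members cut versican and aggrecan, large proteoglycans that bind hyaluronan, others trim procollagen, and others act on microfibrils or cartilage oligomeric matrix protein. In muscle, clearing of a versican-rich pericellular matrix accompanies the fusion of myoblasts into myotubes. N6-methyladenosine (m6A) is a methyl mark on mRNA, frequent near stop codons and in 3′ UTRs, that is read by proteins acting on splicing, translation and decay.

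The input libraries carried FPKM, fragment counts divided by exon length and by the number of mapped reads, which can be compared between genes. FPKM summed over all genes to between 415740 and 434458 in GM and to between 386436 and 390827 in DM, so the choice of scaling matters for small differences. Markers of myotubes rose in 6 of 7 tested genes (MYH3, embryonic myosin heavy chain, from 273 ± 2.74 to 659 ± 15.0 FPKM, SD, n = 3 each). Markers of myoblasts fell in 5 of 6 (MYF5 from 11.8 ± 0.935 to 2.25 ± 0.261 FPKM). Among those 5, PAX7, a satellite cell factor, went from 1.08 ± 0.0972 to 0.0624 ± 0.0339 FPKM. PAX7 reached the mean of 0.5 FPKM required for testing only through GM. Fibroblast markers were abundant in both groups, with a summed level over the 8 genes of 706 to 748 FPKM in GM and 794 to 811 FPKM in DM (3 of 7 tested genes rose and 1 fell, and PI16 was close to 0). Pericyte and smooth muscle markers summed to 30.5 to 32.8 FPKM in GM and 38.9 to 40.8 in DM, with both tested genes, CSPG4 and PDGFRB, higher in DM and MYH11 under 1 FPKM. Endothelial markers summed to less than 1 FPKM in every library, and macrophage and adipocyte markers to no more than 2.01 FPKM. The part of fibroblast and pericyte markers in the results below was not tested, and in such bulk samples fewer cells of a type and less RNA per cell cannot be told apart.

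The mRNA levels moved in both directions. Among the members that cut versican or aggrecan, ADAMTS1, ADAMTS4, ADAMTS5 and ADAMTS9 fell in DM. The call of ADAMTS5 was lost after rescaling each library to the same FPKM sum. ADAMTS15, which also cuts versican and aggrecan, was close to 0 and not tested. The procollagen protease ADAMTS2 and the fibrillin-associated ADAMTS6 and ADAMTS10 rose. ADAMTS7 and ADAMTS12, which cut cartilage oligomeric matrix protein, did not pass the test. Of the 9 tested members, 3 rose and 4 fell at an adjusted p under 0.05 (limma on log2(FPKM + 1), Benjamini-Hochberg over 12302 genes), where 16.1% of all tested genes were higher and 26.7% lower. The study called genes by edgeR at a fold change over 1.5 with an unadjusted p under 0.05. With that threshold set on the limma fit instead, only ADAMTS6 was higher and ADAMTS1, ADAMTS4 and ADAMTS9 were lower, against 4.9% and 6.97% of all tested genes. In 7 of the 9 members the 3 GM and 3 DM values did not overlap, as in 54.1% of tested genes, and these were the 7 called members. The median log2 fold change was -0.10 over the 9 members and -0.05 over all tested genes.

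**Figure D1:**
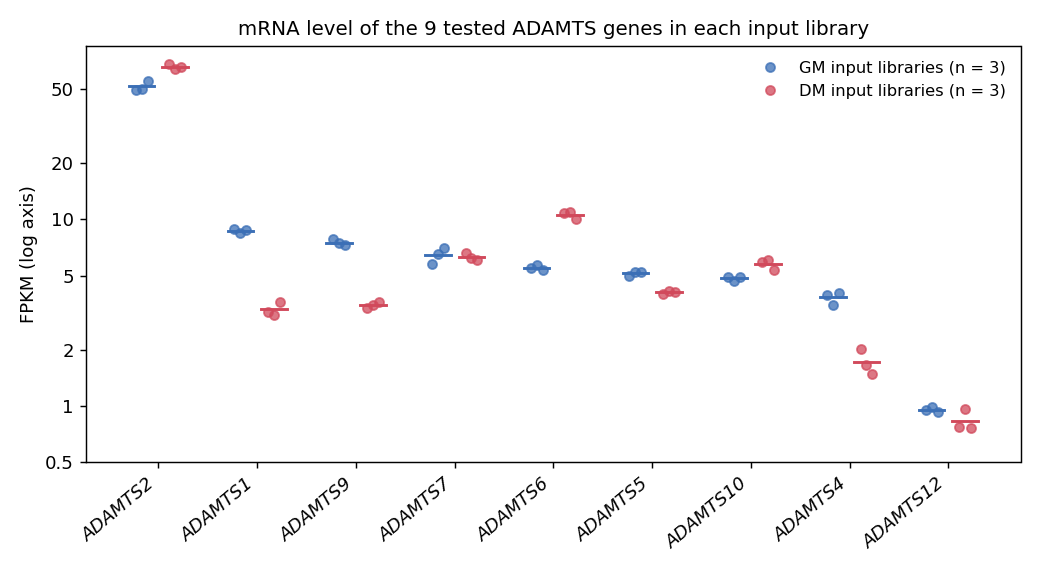
mRNA level in FPKM (log axis) of the 9 tested ADAMTS genes, ordered by their GM mean, with 1 point per input library and a bar at each group mean. ADAMTS2 lies above every other member in both groups, ADAMTS1, ADAMTS9 and ADAMTS4 lie lower in DM, ADAMTS6 lies higher, and the points of ADAMTS7 and ADAMTS12 overlap between the groups.

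ADAMTS1, which cuts versican and aggrecan, had the largest fall of the members. It lies at chr1:9583345-9592271 of ARS-UCD1.2 on the plus strand (ENSBTAG00000000706). Its levels were 8.85, 8.47 and 8.77 FPKM in the GM libraries and 3.19, 3.09 and 3.59 FPKM in the DM libraries. Every GM value was well above every DM value, with means of 8.70 ± 0.198 and 3.29 ± 0.265 (SD, n = 3 each), 2.64-fold lower in DM. The log2 fold change on log2(FPKM + 1) was -1.18 (SE 0.0662, 95% interval -1.33 to -1.03, limma adjusted p = 4.6e-06).

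ADAMTS9, a versican-cleaving protease whose nematode relative GON-1 is needed for gonad migration, fell by a similar ratio. Its levels were 7.84, 7.45 and 7.26 FPKM in GM and 3.34, 3.49 and 3.59 FPKM in DM (chr22:36760610-36922968, plus strand, ENSBTAG00000003165). The groups were far apart against a spread of 0.297 and 0.122 FPKM (SD) within them. The means, 7.51 and 3.47 FPKM, differed 2.16-fold, and the log2 fold change was -0.93 (SE 0.0606, 95% interval -1.07 to -0.79, limma adjusted p = 1.0e-05).

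ADAMTS4 and ADAMTS5 are known as the main aggrecanases of cartilage. ADAMTS4 (chr3:8303389-8311838, plus strand, ENSBTAG00000013210) stood at 3.91, 3.47 and 4.05 FPKM in GM and at 2.01, 1.65 and 1.48 FPKM in DM. The lowest GM library was above the highest DM library, and the DM values varied more in proportion than those of ADAMTS1 or ADAMTS9. Its means were 3.81 ± 0.300 and 1.72 ± 0.270 FPKM, 2.22-fold lower in DM, with a log2 fold change of -0.83 (SE 0.0920, 95% interval -1.04 to -0.62, limma adjusted p = 2.0e-04).

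ADAMTS5 (chr1:9440973-9491324, plus strand, ENSBTAG00000000648) moved least of the 4. Its levels were 4.99, 5.24 and 5.20 FPKM in GM and 4.00, 4.15 and 4.08 FPKM in DM, groups that did not overlap and that were each tight. The means of 5.14 ± 0.135 and 4.07 ± 0.0769 FPKM differed 1.26-fold, and the log2 fold change was -0.28 (SE 0.0580, 95% interval -0.41 to -0.14, limma adjusted p = 0.00581). After rescaling each library to the same FPKM sum (TPM) the log2 fold change was -0.19 and the adjusted p 0.0536, so that the call of ADAMTS5 was lost. ADAMTS5 and ADAMTS1 lie on the same strand of chromosome 1 with 92020 bases and no other gene of the table between them, and the 95% intervals of their fold changes did not overlap (the difference itself was not tested).

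ADAMTS15, which also cleaves versican and aggrecan, was barely detected. It was listed at 0.0159, 0 and 0 FPKM in GM and at 0.0156, 0.0243 and 0.0164 FPKM in DM (chr29:36560407-36584912, plus strand, ENSBTAG00000016857). The groups overlapped, and the exact two-sided permutation test gave p = 0.2, where the smallest p possible with 3 against 3 libraries is 0.1. The depth behind these FPKM values is not part of the table, and a difference was not detectable at this level.

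ADAMTS2, the protease that removes the N-terminal propeptide of fibrillar procollagens, was the most abundant member and rose modestly. Its levels were 49.4, 50.5 and 55.6 FPKM in GM and 68.3, 63.9 and 66.0 FPKM in DM (chr7:2015432-2260856, plus strand, ENSBTAG00000014665). All DM values lay above all GM values. The means were 51.8 ± 3.35 and 66.1 ± 2.18 FPKM, 1.28-fold higher in DM, and the log2 fold change was 0.35 (SE 0.0590, 95% interval 0.21 to 0.48, limma adjusted p = 0.00199). ADAMTS2 made up 53.6 to 56.1% of the summed FPKM of the 10 members in GM and 63.6 to 65.4% in DM. The summed level of the 10 members was 92.1 to 99.1 FPKM in GM and 100.5 to 104.9 FPKM in DM, but without ADAMTS2 it was 42.6 to 43.5 FPKM in GM and 35 to 36.6 FPKM in DM. Neither pair of ranges overlapped, and the sums with and without ADAMTS2 moved in opposite directions.

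ADAMTS6 and ADAMTS10 are close relatives linked to fibrillin microfibrils, and mutations of ADAMTS10 cause Weill-Marchesani syndrome. ADAMTS6 (chr20:14047359-14332388, plus strand, ENSBTAG00000016963) had the largest rise of the members. Its levels were 5.52, 5.72 and 5.32 FPKM in GM and 10.8, 11 and 10.1 FPKM in DM, so that every DM library was well above every GM library. The means were 5.52 ± 0.196 and 10.6 ± 0.481 FPKM, 1.93-fold higher in DM, with a log2 fold change of 0.84 (SE 0.0596, 95% interval 0.70 to 0.97, limma adjusted p = 1.7e-05).

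ADAMTS10 (chr7:17159713-17179480, minus strand, ENSBTAG00000014207) rose by less than any other called member. It stood at 4.94, 4.69 and 4.89 FPKM in GM and at 5.88, 6.04 and 5.32 FPKM in DM, and the lowest DM library was close to the GM values. The means were 4.84 ± 0.131 and 5.75 ± 0.375 FPKM, 1.19-fold higher in DM, and the log2 fold change was 0.21 (SE 0.0652, 95% interval 0.06 to 0.36, limma adjusted p = 0.0337). This call was lost without GM library 1 (adjusted p = 0.0692), GM library 2 (0.0973), DM library 1 (0.106) or DM library 2 (0.0972), and also with no filter on low values (0.0553). Its 95% interval lay below that of ADAMTS6, and the difference between them was not tested.

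ADAMTS7 and ADAMTS12 form a pair of large, mucin-domain-bearing members. ADAMTS7 (chr21:30312315-30373658, plus strand, ENSBTAG00000001396) stood at 5.75, 6.53 and 7.05 FPKM in GM and at 6.64, 6.19 and 6.03 FPKM in DM. All 3 DM values fell within the GM range, and the log2 fold change of -0.03 had a 95% interval of -0.21 to 0.15 (limma adjusted p = 0.806). The sign turned with TPM (0.088), with median-ratio size factors (0.027) and without GM library 3 (0.030). Its 3′ end overlaps TBC1D2B on the minus strand (ENSBTAG00000012022, chr21:30372068-30461318), which was more abundant at 16.8 FPKM in GM and 20.5 FPKM in DM. The libraries were strand-specific, but no source used here gives the strand setting of the quantification, so reads of the 2 genes could be mixed where they overlap.

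ADAMTS12 (chr20:39873127-40265889, plus strand, ENSBTAG00000012558) was low. Its levels were 0.945, 0.981 and 0.925 FPKM in GM and 0.766, 0.964 and 0.755 FPKM in DM, where 1 DM library lay within the GM range. The log2 fold change was -0.10 with a 95% interval of -0.28 to 0.09 (limma adjusted p = 0.379).

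**Figure D2:**
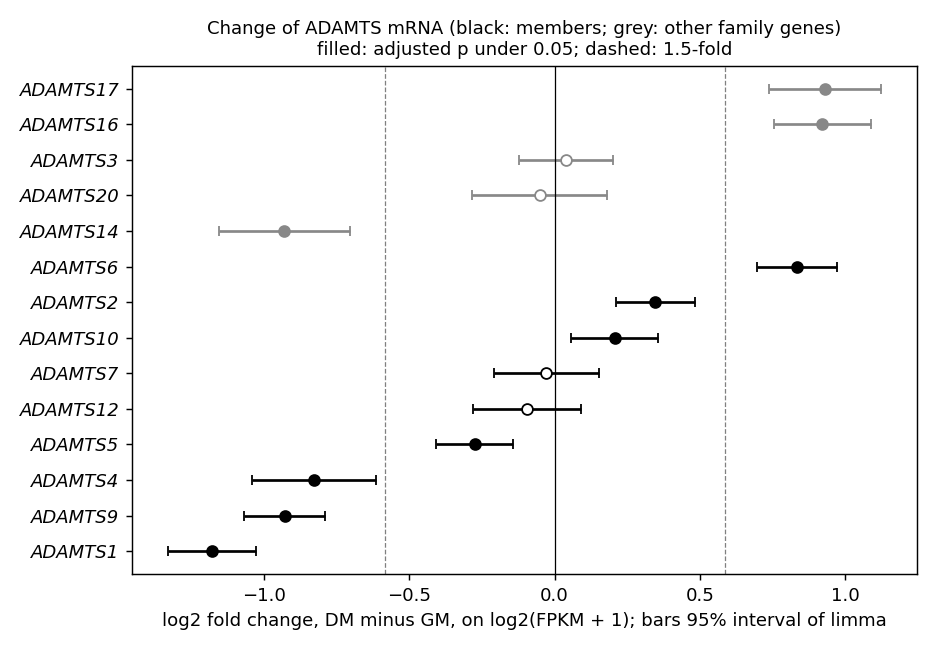
log2 fold change (DM minus GM, on log2(FPKM + 1)) of the 9 tested members in black and of 5 other tested ADAMTS genes in grey, with the 95% interval of limma, filled where the adjusted p was under 0.05. The intervals of ADAMTS1, ADAMTS9 and ADAMTS4 lie wholly beyond a 1.5-fold fall and that of ADAMTS6 beyond a 1.5-fold rise, while those of ADAMTS7 and ADAMTS12 cross 0.

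The order of the members by FPKM differed between the groups. In GM it was ADAMTS2, ADAMTS1, ADAMTS9, ADAMTS7, ADAMTS6, ADAMTS5, ADAMTS10, ADAMTS4, ADAMTS12 and ADAMTS15, and the ranges of no 2 neighbours overlapped. In DM it was ADAMTS2, ADAMTS6, ADAMTS7, ADAMTS10, ADAMTS5, ADAMTS9, ADAMTS1, ADAMTS4, ADAMTS12 and ADAMTS15, and ADAMTS7 with ADAMTS10 and ADAMTS9 with ADAMTS1 did not differ beyond their spread. ADAMTS1 thus went from rank 2 to rank 7, and ADAMTS6 from rank 5 to rank 2.

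Scaling changed the balance of calls over all genes. Of the genes called at an adjusted p under 0.05, 37.6% were higher in DM with FPKM, 49.0% with median-ratio size factors and 59.5% with TPM, and TPM moved the median log2 fold change of all tested genes from -0.05 to 0.06. Relative to that median, ADAMTS1 stood at -1.13 with FPKM and -1.24 with TPM, and ADAMTS6 at 0.89 and 0.96. ADAMTS5 stood at -0.22 and -0.25 relative to the median, and ADAMTS10 at 0.26 and 0.29. ADAMTS4 stood at -0.78 and -0.95, so the shift was not the same for every member. The 1 of log2(FPKM + 1) was also added to TPM, where it weighs less on low genes. The members numbered 3 higher and 4 lower with FPKM and with size factors, and 3 higher and 3 lower with TPM. Of all 12302 tested genes, 1980 were higher and 3288 lower with FPKM. Size factors gave 2554 higher and 2663 lower, and TPM gave 2993 higher and 2038 lower.

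Peaks of m6A were compared between a GM and a DM list, which exomePeak had made from the pooled libraries of each group. Fold enrichment is the ratio of IP over input within a peak, with 1 value per list and no replicate error, so a difference in fold enrichment has no test. The members held 16 peaks in GM and 24 in DM. All 9 tested members had a peak in each list, where 70.9% of tested genes had one in GM and 78.7% in DM. Annotation placed 7 of the 16 GM peaks in 3′ UTRs, 6 in coding or other exons and 3 in 5′ UTRs, against 42.6%, 41.3% and 16.1% of all GM peaks. In DM, 12 of the 24 lay in 3′ UTRs, 9 in exons and 3 in 5′ UTRs, against 45.3%, 36.5% and 18.2% of all DM peaks. The annotation gives 1 region per peak, although many peaks run over several exon blocks.

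**Figure D3:**
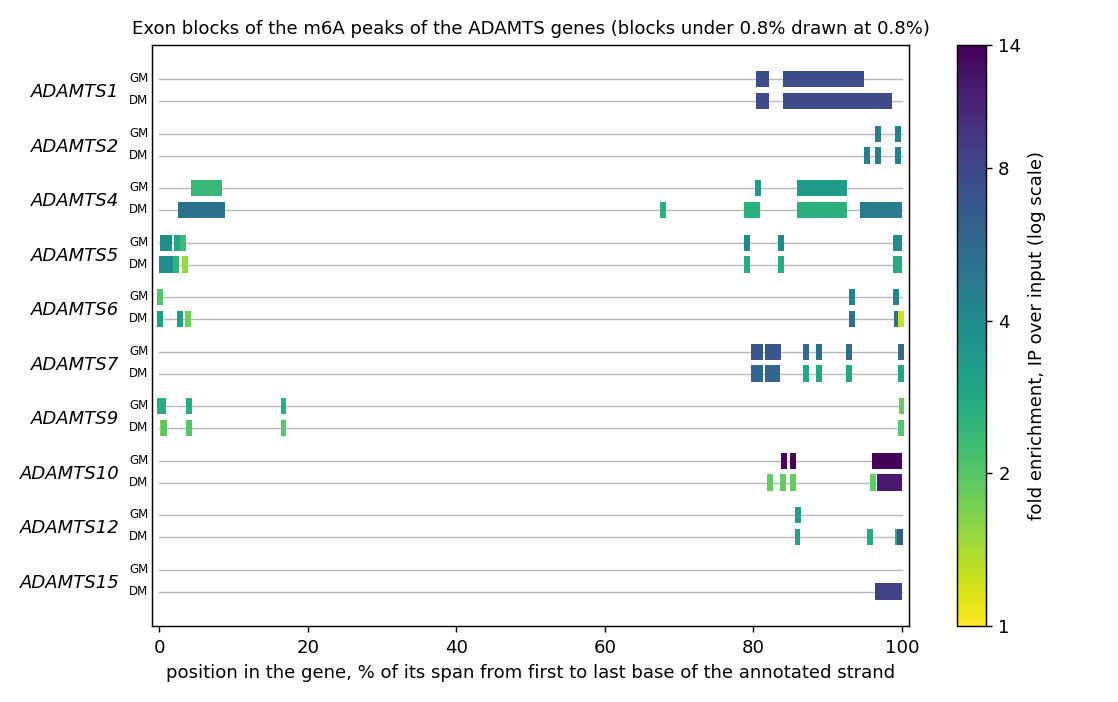
Exon blocks of the m6A peaks of the 10 members along each gene, in percent of its span from first to last base, with the GM list above the DM list and the fold enrichment of IP over input as colour (log scale). Every member with a peak has blocks towards its 3′ end, and ADAMTS4, ADAMTS5, ADAMTS6 and ADAMTS9 also carry blocks near the 5′ end.

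Fold enrichment of the members' peaks ran from 1.87 to 13.8 in GM and from 1.25 to 11.7 in DM, with medians of 3.58 and 2.95, beside 3.27 and 3.38 over all peaks of the lists. A false discovery rate under 0.05 was reached by all 16 GM peaks and by 22 of the 24 DM peaks. No GM peak of a member lacked an overlapping DM peak, where 14.7% of all GM peaks did. Of the DM peaks, 6 of 24 had no overlapping GM peak, where 28.7% of all DM peaks had none. These 6 lay in ADAMTS4, ADAMTS6, ADAMTS12 and ADAMTS15. The remaining peaks formed 14 pairs of exactly 1 GM and 1 DM peak, and 1 GM peak each of ADAMTS9 and ADAMTS10 overlapped 2 DM peaks. The ratio of fold enrichment was over 1.5 in 2 of the 14 pairs as higher in DM (14.2% of 10239 pairs) and in 2 as lower in DM (10.8%). The median log2 ratio was -0.06 over the 14 pairs and 0.07 over all pairs.

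The strongest peak of the family was on ADAMTS10. In GM it covered 1078 exonic bases in 3 blocks up to the last base of the gene (chr7:17159713-17162903, minus strand, 3′ UTR) with a fold enrichment of 13.8, above 96.4% of all GM peaks. In DM that stretch was covered by a 3′ UTR peak of 659 bases (chr7:17159713-17160371) with a fold enrichment of 11.7 and an upstream peak of 419 bases with 1.88. The end of the gene thus held the highest fold enrichment of the members in both lists, and no ratio was taken where 1 peak faced 2.

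Among the members that fell, the 3′ UTR peak of ADAMTS1 stayed near its value. Its fold enrichment was 7.6 in GM over 1137 exonic bases and 7.72 in DM over 1466 bases (chr1:9590516-9592151 in DM), a ratio of 1.02, while its mRNA was 2.64-fold lower. The 3′ UTR peak of ADAMTS9 stood at 1.87 over 121 bases in GM and 2.03 over 271 bases in DM. Near its start, ADAMTS9 had 1 GM peak of 811 bases with a fold enrichment of 2.64, and in DM 2 peaks there with 1.57 and 2.01.

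ADAMTS4 had the highest DM to GM ratio of the 14 pairs and an additional peak in DM. Its 5′ UTR peak stood at 2.40 in GM (chr3:8303747-8304105, 359 bases) and at 5.32 in DM (chr3:8303598-8304135, 538 bases), a ratio of 2.22. Its main 3′ pair lay the other way, at 3.28 in GM and 2.59 in DM, a ratio of 0.790. A further DM peak of 479 bases lay at the very end of its 3′ UTR (chr3:8311360-8311838) with a fold enrichment of 4.66 and no overlapping GM peak. The higher 5′ ratio was found with a lower mRNA level, 1.72 FPKM in DM.

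ADAMTS5 carried 4 peaks in each list, all paired and none higher in DM. The 5′ UTR peak stood at 3.88 in GM and 3.83 in DM, a peak in exon 1 at 2.97 and 2.53, and the peak that runs from exon 6 of 8 to the last base of the gene at 3.92 and 2.76, a ratio of 0.704. The second exon 1 pair stood at 2.31 and 1.5, a ratio of 0.649, but its peaks shared 1 base only (chr1:9442473-9442683 in GM and chr1:9442683-9442802 in DM). That pair is therefore a comparison of neighbouring stretches.

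ADAMTS15 had a DM peak of 899 bases at the end of its 3′ UTR (chr29:36584014-36584912) with a fold enrichment of 8.52. Its unadjusted p-value was 0.015 and its false discovery rate 0.0741, at an mRNA level of 0.0188 FPKM. The number of fragments behind that ratio is unknown, and no GM peak was listed.

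The most abundant member, ADAMTS2, had nearly the same fold enrichment in both lists. Its single 3′ UTR peak stood at 4.63 over 569 bases in GM and at 4.57 over 688 bases in DM (chr7:2249297-2259990 in DM, 3 blocks), a ratio of 0.987.

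ADAMTS6 had longer and more peaks in DM. The DM peak was the longer one in 67.0% of all pairs and in 9 of the 14 pairs of members, so longer DM peaks were common in these lists. Its 5′ UTR pair stood at 2.03 over 61 bases in GM and at 3.13 over 779 bases in DM (chr20:14047389-14055242), a ratio of 1.54. The second block of this DM peak, of 211 bases, had no GM counterpart. Among genes changed in both m6A and mRNA, the paper lists ADAMTS6 with those of the most raised m6A, with a 5′ UTR peak inside that block. Its value is for that stretch alone and is not the same measure as the ratio of 1.54. Its 3′ UTR pair stood at 4.30 over 510 bases and 5.45 over 1168 bases (chr20:14313162-14331191 in DM), a ratio of 1.27. In DM 2 more peaks had no GM counterpart, one in exon 3 of 25 with a fold enrichment of 1.76 and one of 61 bases in the 3′ UTR with 1.25 and a false discovery rate of 0.117. In all, its peaks covered 571 exonic bases in GM and 2339 in DM, and the 5′ ratio compares peaks of unequal length.

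ADAMTS7 had the lowest DM to GM ratio of the 14 pairs. Its 3′ UTR peak covered the same 420 bases in 4 blocks in both lists (chr21:30365728-30373658), the only pair of the 14 with identical extent, and stood at 5.51 in GM and 2.90 in DM, 1.90-fold lower. Its mRNA level was 6.44 ± 0.656 FPKM in GM and 6.29 ± 0.316 in DM. The peak around exon 17 of 26 stood at 6.81 over 1559 bases and 5.98 over 1469 bases, a ratio of 0.878. Of the 420 bases, 56 lie within the span of TBC1D2B on the other strand, and no peak annotated to TBC1D2B (0 peaks in GM, 2 in DM) reached the 1591 bases where the genes overlap.

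ADAMTS12 had 2 further peaks near its 3′ end in DM. The peak shared by the lists, in exon 19 of 24, stood at 3.23 in GM and 3.0 in DM. The further DM peaks had fold enrichments of 2.74 over 391 bases and 6.60 over 180 bases (chr20:40264630-40264809), at an mRNA level of 0.828 FPKM. The total exonic length under its peaks was 361 bases in GM and 1172 bases in DM.

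**Figure D4:**
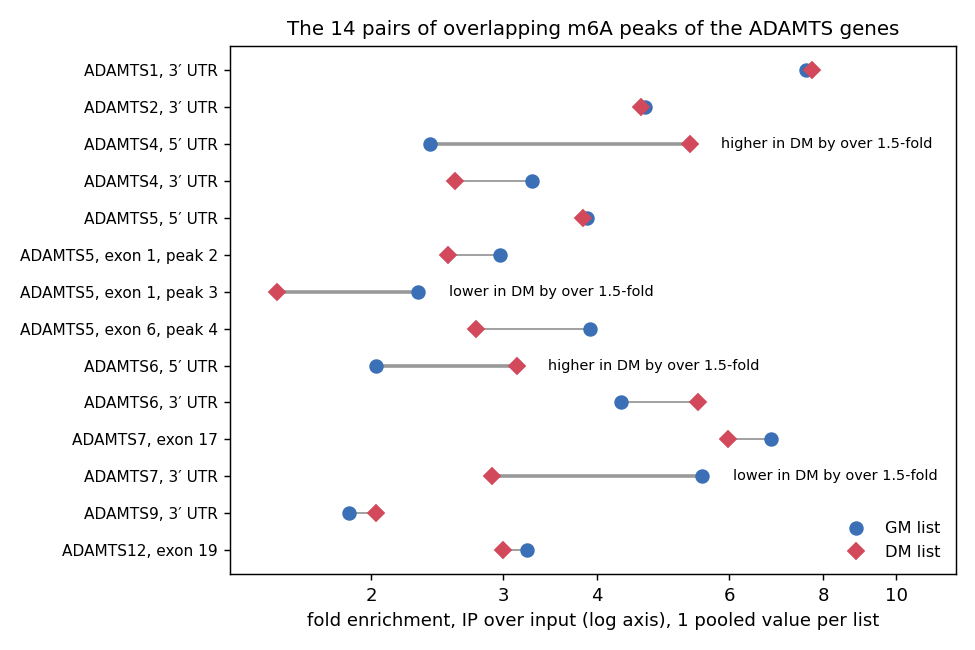
Fold enrichment of IP over input (log axis) in GM and DM for the 14 pairs of overlapping peaks of the members, with 1 pooled value per list and no error. The 5′ UTR pairs of ADAMTS4 and ADAMTS6 lie higher in DM by over 1.5-fold, the 3′ UTR pair of ADAMTS7 and 1 exon 1 pair of ADAMTS5 lie lower, and the other 10 pairs lie closer together.

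Set side by side, mRNA and m6A gave different orders of the members. ADAMTS1, ADAMTS9 and ADAMTS2 changed in mRNA with 3′ UTR pair ratios of 1.02, 1.09 and 0.987. The longer GM peak of ADAMTS9, near its start, faced 2 DM peaks and has no ratio. ADAMTS4 was lower in mRNA, with pair ratios of 2.22 (5′ UTR) and 0.790 (3′ UTR). ADAMTS5 was also lower, with pair ratios from 0.649 to 0.987. ADAMTS7 had the lowest pair ratio and no called change in mRNA, and ADAMTS6 was higher in mRNA and in both of its pair ratios. Both readouts use the same input libraries.

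Of the other ADAMTS genes, 7 had a row in the table and 5 were tested. ADAMTS16 rose from 4.53 ± 0.368 to 9.48 ± 0.541 FPKM (log2 fold change 0.92, limma adjusted p = 3.0e-05). ADAMTS17, a relative of ADAMTS10, went from 0.0829 ± 0.0450 to 1.06 ± 0.0886 FPKM (0.93, limma adjusted p = 6.0e-05). ADAMTS17 reached the mean of 0.5 FPKM required for testing only through DM, so its call rests on the group where it was high. ADAMTS14, a procollagen protease related to ADAMTS2, fell from 2.81 ± 0.260 to 1.00 ± 0.208 FPKM (-0.93, adjusted p = 1.5e-04). ADAMTS2 and ADAMTS14 thus moved in opposite directions, while ADAMTS3, the remaining procollagen protease of the family, stood at 1.07 and 1.12 FPKM (0.04, adjusted p = 0.697). ADAMTS20 stood at 5.54 FPKM in GM and 5.35 FPKM in DM and did not pass the test (-0.05, limma adjusted p = 0.719). ADAMTS13 and ADAMTS19 were close to 0, and ADAMTS8 and ADAMTS18 were not analysed here.

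The known substrates and binding partners of the family gave a mixed picture. Of 25 genes, 23 were in the table and 19 tested, of which 9 rose, 4 fell and 6 did not pass the test, with a median log2 fold change of 0.13. FN1 (fibronectin) rose from 928 ± 24.4 to 4498 ± 256 FPKM (2.27), NID1 (nidogen, a basement membrane linker) from 98.7 ± 2.72 to 218 ± 5.57 FPKM (1.13), LTBP1 (a latent TGF-beta binding protein) from 14.1 ± 0.399 to 26.2 ± 0.855 FPKM (0.85) and FMOD (fibromodulin) from 197 ± 6.41 to 348 ± 23.3 FPKM (0.82). VCAN (versican), a substrate of ADAMTS1, ADAMTS4, ADAMTS5 and ADAMTS9 among others, fell from 83.4 ± 3.41 to 51.9 ± 0.411 FPKM, a log2 fold change of -0.67 (limma adjusted p = 1.8e-05). It was named after its value was seen. ACAN (aggrecan) stood at 0.103 and 0.192 FPKM and COMP at 0.0345 and 0.0980 FPKM, so that these well-known substrates of ADAMTS4, ADAMTS5, ADAMTS7 and ADAMTS12 were below the filter on low values. With TPM the list numbered 10 higher and 4 lower.

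Among the inhibitors and uptake receptors, all 5 tested genes of 9 listed rose, where 16.1% of all tested genes were higher. The median of these 5 was 0.82 on the log2 scale, and all 5 were also higher with TPM and with size factors. TIMP3, the main tissue inhibitor of ADAMTS proteases, rose from 227 ± 6.06 to 402 ± 3.02 FPKM (0.82), TIMP2 from 114 ± 2.58 to 230 ± 13.3 FPKM (1.00), and LRP1, a receptor that clears ADAMTS4 and ADAMTS5 from the cell surface, from 169 ± 17.6 to 298 ± 5.89 FPKM (0.82). RECK, a membrane-anchored protease inhibitor, rose from 5.19 ± 0.628 to 9.87 ± 0.538 FPKM (0.82) and GRN (progranulin) by 0.41. TIMP4, another tissue inhibitor of metalloproteinases, lay below the filter and was not tested. It stood at 0.804, 0.758 and 0.353 FPKM in GM and at 0.0928, 0.0710 and 0 FPKM in DM, lower in every DM library than in any GM library.

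ADAMTS-like genes lack the protease domain and bind microfibrils or matrix. Of the 7 in the table, 4 were tested. ADAMTSL4 rose from 8.11 ± 0.270 to 19.0 ± 1.6 FPKM (1.14) and ADAMTSL1 from 1.80 ± 0.0926 to 4.95 ± 0.273 FPKM (1.09), and 2 did not pass the test (ADAMTSL5 did with TPM, at 0.23 and a limma adjusted p of 0.0452). The median log2 fold change was 0.60.

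The list of activation and folding enzymes was tested in full (9 of 9), with 4 higher, 1 lower and a median log2 fold change of 0.16. It also holds hydroxylases known for collagen, and PLOD1 and P4HA2 are counted among the higher genes. POFUT2 (-0.07, limma adjusted p = 0.256) and B3GLCT (0.16, limma adjusted p = 0.0585) did not pass the test with FPKM. B3GLCT was higher with TPM (0.29) and with size factors (0.22). PCSK6, a convertase that binds the matrix, rose from 2.00 ± 0.0592 to 4.71 ± 0.268 FPKM (0.93), PLOD1 (a lysyl hydroxylase of collagen) by 0.39, PCSK5 by 0.33 and P4HA2 (a prolyl hydroxylase subunit) by 0.19 on the log2 scale. FURIN, the convertase best known for ADAMTS precursors, had a log2 fold change of -0.18 (adjusted p = 0.0438) that was not called with TPM (-0.06) or size factors (-0.12), and under either scaling 5 genes of this list were higher and 0 lower.

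Around hyaluronan, 7 of 9 listed genes were tested, of which 1 rose and 2 fell (median log2 fold change -0.10). CD44, the cell surface receptor of hyaluronan, fell from 97.6 ± 3.0 to 46.6 ± 2.10 FPKM (-1.05), and HAPLN3, a link protein that ties proteoglycans to hyaluronan, from 17.6 ± 1.04 to 9.9985 ± 0.452 FPKM (-0.76). TNFAIP6, a hyaluronan-binding protein, rose from 13.9 ± 0.869 to 20.6 ± 1.59 FPKM (0.53). With FPKM, these lists are to be read against the 16.1% of all tested genes that were higher and the 26.7% that were lower. Their counts with TPM or size factors are to be read against the numbers of all tested genes given above for those scalings.

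**Figure D5:**
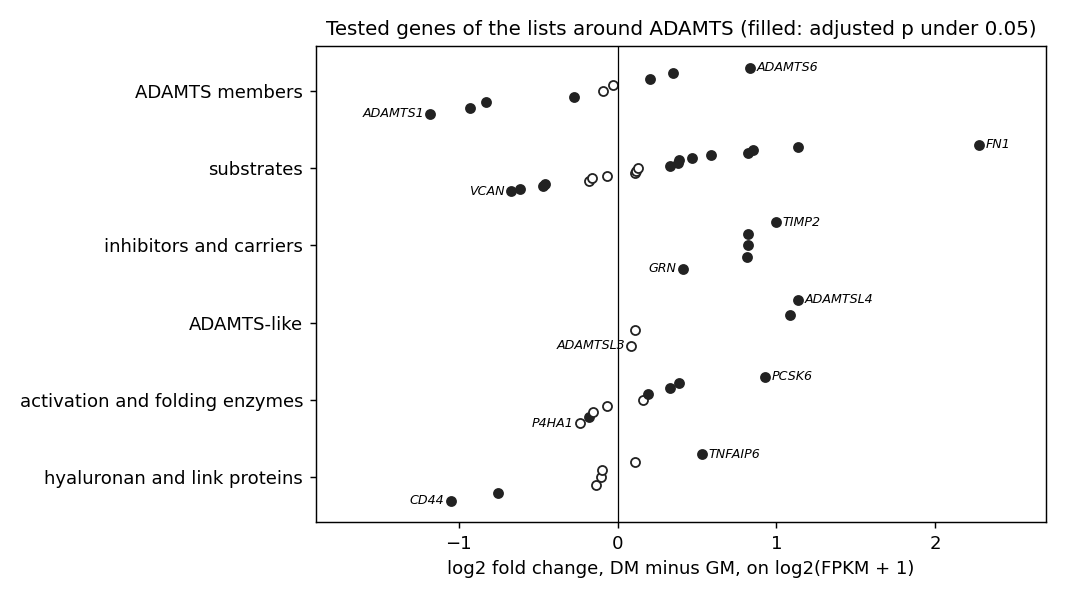
log2 fold change (DM minus GM, on log2(FPKM + 1)) of each tested gene of the 9 tested members and of the 5 related lists, filled where the limma adjusted p was under 0.05, with the lowest and highest gene of each list named. All 5 inhibitors and carriers lie above 0, and the members spread from -1.18 (ADAMTS1) to 0.84 (ADAMTS6).

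The genes outside the family most like the member with the largest rise and the member with the largest fall were found by Pearson r of log2(FPKM + 1) over the 6 input libraries, a measure that mostly follows the gap between the groups. For ADAMTS6 they were SULT1A1, PCSK6, KLF5, FGF18 and ITGA6, with r from 0.9991 to 0.9999. For ADAMTS1 they were KPNB1, PDIA6, ORC3, CTSC and MET, with r from 0.9987 to 0.9996. With only 6 libraries in 2 groups, 981 genes had an r over 0.95 with ADAMTS6 and 1502 with ADAMTS1.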

How the data were processed

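The 12 libraries (input and IP, GM and DM, 3 each) were grouped by their titles. The authors aligned strand-specific reads to ARS-UCD1.2 with HISAT2 and deposited StringTie FPKM of the 6 inputs. Trimmomatic is named as the trimmer in the study's methods, and cutadapt and fastp in the submitters' processing notes. The authors ran exomePeak on pooled libraries and deposited, for each peak, the fold enrichment (a linear ratio of IP over input), its p-value and the log10 of its false discovery rate, with a ChIPseeker region. The score column of the deposited lists holds that p-value. No read counts were used and the depth behind a value is unknown, so precision rests on the spread of 3 libraries per group. Read totals are not used here.

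Expression values were taken as log2(FPKM + 1) and tested by limma 3.58.1 (R 4.3.3, variance trend) in the 12302 genes whose mean reached 0.5 FPKM, and p-values were adjusted by Benjamini-Hochberg over all of them. ADAMTS15, under that filter, had an exact permutation test. A fold change on this scale understates the change of low genes. Peaks were paired in Python 3.11.15 (pandas 2.3.3, numpy 2.4.6, scipy 1.17.1; figures with matplotlib 3.10.9) where exactly 1 GM and 1 DM peak shared at least 1 base of exon blocks on the same strand, and a ratio over 1.5 was counted. The scripts were tested on simulated data.

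The members and lists were chosen with earlier results of these data known. Every member is named with all its values, in each related list the 4 called genes of largest change, and for 2 members the 5 most similar genes. VCAN, ACAN, COMP, TIMP4, GRN, FURIN, POFUT2, B3GLCT, ADAMTSL5, ADAMTS3 and the remaining ADAMTS genes were named beside that rule. Alternatives covered the pseudocount, the filter, TPM and size factors, the variance trend, a replicate block, each library left out, the call rule, stricter peaks, the overlap and centring. Genome sequence, peak calls per sample and the m6A motif were not used here.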

Additional observations from a re-analysis of the deposited data

How the results depend on the processing

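Over 14 settings of the expression fit, 115 of 125 log2 fold changes of single members kept their direction and their side of the threshold, 7 lost the call (ADAMTS10 in 6 and ADAMTS5 with TPM) and 3 changed sign, all of ADAMTS7. ADAMTS7 was 0.088 with TPM, 0.027 with median-ratio size factors and between -0.097 and 0.030 with 1 library left out, and it was called in none of these. Requiring a fold change over 1.5 left 1 member higher, with an unadjusted or an adjusted p. With the replicate number as a replicate block, 2 members were higher and 4 lower, and ADAMTS10 (0.21) had an adjusted p of 0.0829. Deviations from the group mean gave r of -0.08, -0.12 and -0.21 between same-numbered libraries and -0.06 to 0.19 between the others. With 3 libraries per group these values cannot tell whether equal numbers share a culture, and no label says so.

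For m6A, a ratio over 2 left 1 pair higher (ADAMTS4) and 0 lower. Dividing by the median ratio of all pairs left 1 higher (ADAMTS4). Peaks of a fold enrichment of at least 2, or of a false discovery rate under 0.001, left 1 pair lower (ADAMTS7), and sharing 50% or more of each peak left 1 higher (ADAMTS4) and 1 lower (ADAMTS7). The cause of these differences was not tested, apart from the peaks each setting removes. The peak lists have no replicates and the FPKM table no depth, which limits values under 1 FPKM.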

Other observations

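Among the ADAMTS genes outside the 10 members, the 3′ UTR peak of ADAMTS14, a procollagen protease, had a fold enrichment of 4.70 in GM and 2.61 in DM, a ratio of 0.555, beside its lower mRNA. ADAMTS17, a relative of ADAMTS10, had no GM peak and 1 DM peak with a fold enrichment of 4.82, and ADAMTS16 had 1 DM peak with 1.75. ADAMTSL4, a microfibril-binding ADAMTS-like protein, had a 3′ UTR peak of the same 750 bases in both lists with fold enrichments of 7.76 and 9.07, and an exon pair that lay the other way, at 2.25 over 631 bases in GM and 1.18 over 91 bases in DM, a ratio of 0.524. The 3′ UTR pair of ADAMTSL1 stood at 1.88 and 3.14, a ratio of 1.67 over peaks of 211 and 570 bases, and a further GM exon peak of ADAMTSL1 with 3.09 had no overlapping DM peak. These peaks carry no replicate error.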
